A study of Mus musculus with 6 samples.

Results

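Foxp3 regulatory T cells were examined in draining lymph nodes. All 6 mice, 3 wild-type (WT) and 3 with a Pik3cg knockout (KO), had received NP-Ova in alum 3 times and were sampled at day 34. The cells were chosen by their transcripts: at least 1 unique molecular identifier (UMI, one captured transcript) over Cd3d, Cd3e and Cd3g, none of Cd79a, Cd8a and Cd8b1, and at least 1 of Foxp3. The rule found 144 cells among 3917 T cells and 19230 retained cells. The comparison class, CD4 T cells without Foxp3, held 599 cells with the same Cd3, Cd79a and Cd8 limits, at least 1 Cd4 UMI and no Foxp3 UMI. Pik3cg encodes the catalytic subunit of the kinase PI3K gamma, and the series compares immunized mice with and without it. Each mouse carried its own antibody hashtag, the 6 mice were pooled and run on 2 droplet lanes, and mice served as replicates (n = 3 in each genotype). Age and strain are not given in the sources used here, and no label restricts the knockout to a cell type. The suspension was 70% B-enriched cells, made by a negative selection that removes other cell types, and 30% untouched cells, so shares of all cells are not tissue shares.

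Regulatory T cells restrain immune responses. Foxp3 is the transcription factor that defines them, and the IL-2 receptor, Ctla4 and members of the TNF receptor family are well-known parts of their surface equipment. In lymph nodes they include resting cells that recirculate through CCR7, activated effector cells, and follicular regulatory cells that act on germinal centres.

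The promoter windows of the gene with the largest rise and the gene with the largest fall in regulatory T cells are shown because these genes frame the comparison of classes. They are the 250 bases before the RefSeq start on GRCm38.p6, chr2:11642542-11642791 on the plus strand for Il2ra (the IL-2 receptor alpha chain) and chr2:59484403-59484652 on the plus strand for Dapl1, a gene of resting T cells. Capitals mark the forkhead-type motif TGTTTAC, searched on both strands.
Il2ra: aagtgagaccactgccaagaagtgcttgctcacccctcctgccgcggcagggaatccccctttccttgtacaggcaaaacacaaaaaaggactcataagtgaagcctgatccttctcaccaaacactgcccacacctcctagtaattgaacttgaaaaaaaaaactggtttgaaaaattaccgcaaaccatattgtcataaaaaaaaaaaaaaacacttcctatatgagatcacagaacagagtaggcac
Dapl1: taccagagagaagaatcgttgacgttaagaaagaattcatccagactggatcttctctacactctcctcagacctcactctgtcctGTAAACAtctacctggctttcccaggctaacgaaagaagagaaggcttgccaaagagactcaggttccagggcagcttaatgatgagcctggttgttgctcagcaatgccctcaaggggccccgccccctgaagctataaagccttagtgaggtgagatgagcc
The Dapl1 window held the motif once, on the minus strand, and the Il2ra window did not hold it. The motif was in at least 1 window of 3.54% of the 27025 genes with windows of that length. Among matched genes it was in 24 of 980 tested between the classes (2.45%). It was in 2 of 64 matched genes higher in regulatory T cells and in 6 of 77 matched genes lower (7.79%). The STAT-type motif TTCNNNGAA, which reads the same on both strands, was in 8.13% of all genes and in 81 of 980 tested (8.27%). It was in 7 of the higher genes (10.9%) and in 6 of the lower genes (7.79%). A match describes letters and is not a bound site.

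The regulatory T cells had a median of 2182 UMIs and 1010 genes per cell, and the CD4 T cells without Foxp3 had 2447 UMIs and 1037 genes. Summed per mouse, regulatory T cells gave 29299 to 104983 UMIs and CD4 T cells without Foxp3 gave 93438 to 375442. KO3 was the thinnest mouse, with 11 regulatory T cells. The hashtag call equalled the most abundant hashtag antibody in all 144 cells. The lanes shared 241 barcode sequences, among them 2 of regulatory T cells, neither of which was a regulatory T cell in both lanes.

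The values that chose the cells are given as a description. Foxp3 was counted once in 93 cells, 2 times in 32, 3 times in 16 and 4 times in 3, so most members lay at the threshold, and the cells just outside it had 0. Foxp3 in CPM (UMIs of a gene scaled to a fixed total per library) stood at 622, 543 and 548 CPM in the WT mice 1 to 3 and 508, 746 and 478 CPM in the KO mice 1 to 3. The genotypes overlapped. After thinning to 1000 UMIs Foxp3 was still found in 47.5% of the cells. A Foxp3 UMI was also present in 0.103% of B cells (Cd79a without Cd3, median 2056.5 UMIs), which should lack it. A Cd4 UMI was present in 50 of the 144 cells.

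The other markers of the label were each found in a larger share of these cells than of the comparison class, but Ikzf2 alone was found in most of them. Il2ra had a UMI in 43.8% of regulatory T cells (exact 95% interval 35.5 to 52.3%, counting error only), 2.67% of CD4 T cells without Foxp3 and 0.286% of B cells. The factor Ikzf2 (Helios) was found in 61.1, 7.18 and 0.088% of the same classes. The inhibitory receptor Ctla4 was found in 36.8, 4.67 and 1.32%, and the costimulatory receptor Tnfrsf4 (OX40) in 42.4, 4.67 and 0.646%. A further class was the 1699 T cells without Cd4, Cd8a, Cd8b1 and Foxp3 UMIs. There Ikzf2 was found in 18.1%, Il2ra in 4.18%, Ctla4 in 4.24% and Tnfrsf4 in 3.18%. Thinned to 1000 UMIs per cell, which left out 3 regulatory T cells and 4 of the other class, the shares were 26.2 against 1.01% for Il2ra and 48.9 against 5.21% for Ikzf2. At least 1 of these 4 markers was found in 126 regulatory T cells (87.5%) and in 75 CD4 T cells without Foxp3 (12.5%), and at least 2 in 77 (53.5%) and 25 (4.17%). In the T cells without Cd4, Cd8a, Cd8b1 and Foxp3 UMIs these shares were 23.0% and 4.53%. Among cells with 1 Foxp3 UMI, 43 of 93 had at least 2 markers, and among cells with more, 34 of 51.

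Each mouse's regulatory T cells were compared with its own CD4 T cells without Foxp3 over 1255 genes, with the genes of the rule left out. In edgeR's quasi-likelihood test with the mouse as a block, 89 genes (7.09%) were higher and 102 (8.13%) lower at a Benjamini-Hochberg adjusted p under 0.05. Fold changes below are log2 values from this fit with their SE (n = 6 mice), adjusted p-values are edgeR's, and levels are TMM-scaled CPM. The split between directions moved with the scaling: library totals without TMM gave 132 higher and 67 lower, and TMM factors taken over all genes gave 45 and 285, with the median of all genes at -0.24. The count was 104 without WT2 and 123 without WT3. With Cd4 required of both classes, which left 3 mice with 10 or more regulatory T cells, 99 genes passed, and of the genes named below Traf1, Icos, Tcf7, Ccr7, Bcl2, Cd48, Cd2, S1pr1, Gpr183, Ptprc, Nfkbia, Rel, Inpp4b and Cd74 lost their calls. DESeq2 called 94 genes and did not call S100a4, Lgals1, S100a11, S100a6, Bcl2, Cd48, Cd2, Itgb1, S1pr1, Gpr183, Ptprc or Cd74.

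The IL-2 receptor genes were higher in regulatory T cells, Il2ra most of all genes named. Il2ra stood at 308, 336 and 345 CPM in WT and 355, 263 and 511 CPM in KO mice. In CD4 T cells without Foxp3 it stood at 6.71, 27.3 and 16.5 CPM in WT and 0, 28.6 and 35.5 CPM in KO mice. The classes did not overlap, and the log2 fold change was 4.06 ± 0.28 (adjusted p = 5.88e-11). Il2rb, the signalling beta chain of the receptor, stood at 122 to 263 CPM against 19.3 to 62 CPM, a rise of 2.54 ± 0.29 (adjusted p = 3.51e-07). Pim1, a kinase induced through STAT5, rose by 2.10. The survival gene Bcl2 rose by 0.64, a call lost without any 1 of WT1, WT2, WT3 or KO3 (0.44 to 0.70). The common gamma chain Il2rg stood at 0.23 and the kinase Jak1 at -0.11, neither past the threshold. Of 14 genes of IL-2 receptor signalling and STAT5, 8 were tested, 4 rose and none fell, with a median of 0.53 beside 0.01 for all tested genes. Il2ra is a marker of the label, and Il2ra and Il2rb were sparse in the comparison class, so this tally and median are a description.

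The signature genes of regulatory T cells rose in all but 1 of those tested. Ikzf2 stood at 923, 1152 and 739 CPM in WT and 1028, 1256 and 273 CPM in KO mice, against 55.7 to 112 CPM in the other class. KO3 was lowest but still above every value of the other class, and the rise was 3.47 ± 0.21 (adjusted p = 3.26e-12). Ctla4, which takes costimulatory ligands off antigen-presenting cells, stood at 399.8, 272 and 283 CPM in WT and 319, 182 and 170.3 CPM in KO mice, against 16.5 to 71 CPM, a rise of 3.16 ± 0.29 (adjusted p = 1.03e-08). Izumo1r, the folate receptor 4 gene, rose by 1.70. Rgs1, a regulator of G-protein signalling, rose by 2.35 and Capg, an actin-capping protein, by 2.27. Of 27 signature genes, 9 were tested and 8 rose (median 2.35). The other was the cytokine gene Tgfb1, at 0.64 (adjusted p = 0.0644). Several signature genes are textbook markers of the cells the rule selects, and some passed the filter only through these cells. The tally and median of this list are a description, and so are those of the other gene lists.

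**Figure D1:**
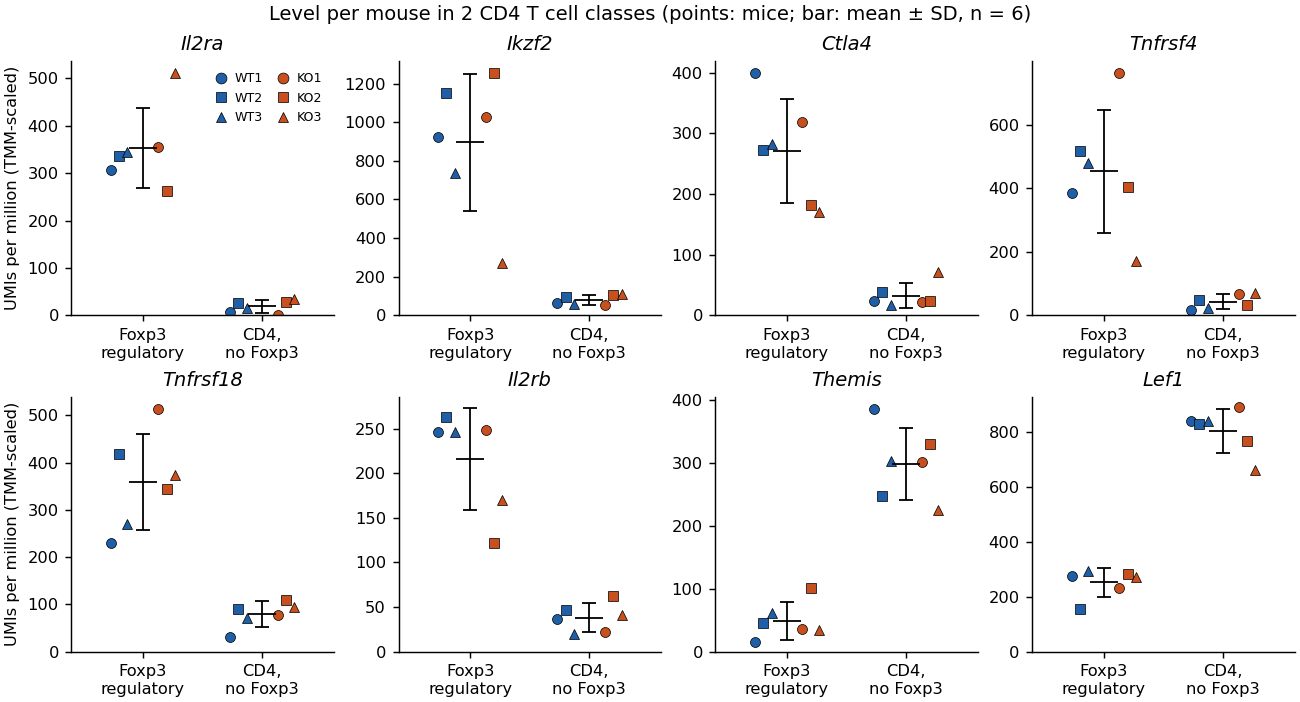
Level of 8 genes per mouse, in TMM-scaled CPM, in Foxp3 regulatory T cells and in CD4 T cells without Foxp3 of the same 6 mice. Il2ra lies at 263 to 511 in regulatory T cells and 0 to 35.5 in the other class, and Ikzf2 is lowest in KO3 among regulatory T cells.

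Costimulatory receptors and 3 NF-kB genes were higher, the latter not under every definition of the classes. Tnfrsf4 stood at 384, 517 and 480.4 CPM in WT and 762, 405 and 170.3 CPM in KO mice, against 16.8 to 71 CPM, a rise of 3.50 ± 0.26 (adjusted p = 1.65e-10). Tnfrsf18 (GITR) stood at 231 to 514 CPM against 30.2 to 109.8 CPM, a rise of 2.16 ± 0.21 (adjusted p = 2.34e-08). Icos, a costimulator of the CD28 family, rose by 1.47 ± 0.27 (adjusted p = 3.03e-04), but on lane 1 alone, where WT2 and WT3 were the mice with 10 or more regulatory T cells, its value was -0.04. The adhesion receptors Cd48 (0.71) and Cd2 (0.47) passed narrowly, and Cd48 lost its call without WT1, WT3 or KO1 and Cd2 without WT1, WT2, KO2 or KO3. Of 22 checkpoint and costimulatory receptors, 11 were tested, 6 rose and none fell (median 0.47), and 3 rose with Cd4 required of both classes or on lane 1. Tnfrsf4 and Ctla4 in this list are markers of the label and were sparse in the comparison class, so its tally and median are a description. Of 16 NF-kB genes, 4 were tested and 3 rose: the receptor adaptor Traf1 (1.66), the inhibitor Nfkbia (1.24) and the subunit Rel (1.14), while the subunit Nfkb1 was at -0.17. With Cd4 required of both classes none of the 7 NF-kB genes tested passed: Traf1 stood at 1.00, Nfkbia at 0.83 and Rel at 0.70 (edgeR adjusted p = 0.276, 0.271 and 0.535). Lane 1 alone gave none either.

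Effector genes were higher but uneven between mice and cells. S100a4, a calcium-binding protein of activated cells, stood at 92.3, 580.4 and 394 CPM in WT and 904, 142 and 0 CPM in KO mice, against 6.71 to 124 CPM. It overlapped between the classes, and KO3 had none. The rise was 2.37 ± 0.36 (adjusted p = 2.52e-05), and DESeq2 did not call it (adjusted p = 0.0955). Its 160 UMIs lay in 25 cells, and 3 cells held 42.5% of them. Lgals1 (galectin-1) rose by 1.41, S100a6 by 1.69 and S100a11 by 1.02, and both S100 genes lost their calls without WT3 (1.21 and 0.87). Of 22 effector genes, 7 were tested, 5 rose and none fell (median 1.41), 3 without WT3 and 1 in DESeq2. The integrin Itgb1, used for tissue entry, rose by 1.08 and lost its call without WT2 or WT3.

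**Figure D2:**
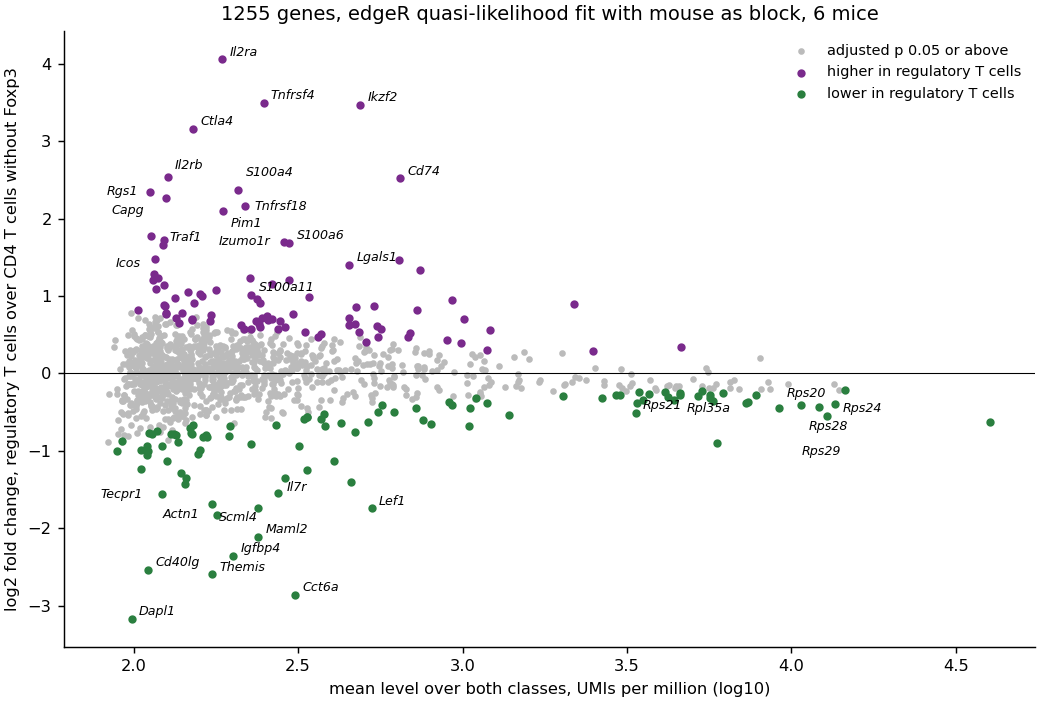
Mean level of each of the 1255 tested genes and its log2 fold change in regulatory T cells over CD4 T cells without Foxp3. The 89 genes called higher reach 4.06 (Il2ra) and the 102 called lower reach -3.17 (Dapl1).

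Genes of conventional helper cells were lower. Cd40lg, the ligand by which helper T cells activate B cells, stood at 15.4, 9.07 and 37 CPM in WT and 70.9, 20.3 and 68.1 CPM in KO mice, against 134 to 267 CPM. The classes did not overlap, and the fold change was -2.54 ± 0.34 (adjusted p = 3.83e-06). Themis, a regulator of T cell receptor signals, stood at 15.4 to 101 CPM against 225 to 386 CPM, a change of -2.60 ± 0.27 (adjusted p = 1.08e-07). Il7r, the IL-7 receptor, stood at 102 to 162 CPM against 332 to 468 CPM, a change of -1.54 ± 0.18 (adjusted p = 5.76e-07). Igfbp4, which binds insulin-like growth factors, fell by 2.36. Of 18 conventional CD4 genes, 8 were tested and all 8 fell (median -2.05). Some, such as Cd40lg, passed the filter only through the comparison class, so this tally is a description too.

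Most genes of the resting state were lower. Dapl1 stood at 0, 0 and 37 CPM in WT and 0, 81 and 0 CPM in KO mice, against 134 to 223 CPM, so 4 mice had none in regulatory T cells. The change was -3.17 ± 0.47 (adjusted p = 1.66e-05), and -4.13 without KO2. Lef1, a factor of naive T cells, stood at 277, 154 and 296 CPM in WT and 231, 284 and 273 CPM in KO mice, against 663 to 891 CPM, a change of -1.74 ± 0.16 (adjusted p = 1.03e-08). Its partner Tcf7 changed by -1.24 and the chromatin organizer Satb1 by -1.14. Ccr7, the receptor that guides T cells into the node, fell by 1.36. Klf2, which drives egress genes (0.01), did not pass. S1pr1, the egress receptor, fell by 0.82 but lost its call without WT2 (-0.49). All 14 resting genes were tested: 9 fell and 1, Bcl2, rose (median -0.73), and 5 fell with Cd4 required of both classes and 4 on lane 1. Of 20 FOXO targets, 10 were tested and 4 fell, among them Il7r and Ccr7 (median -0.30), and 2 fell without WT2, in DESeq2, on lane 2 or with Cd4 required, and 1 on lane 1. Of 27 chemokine and adhesion receptors, 11 were tested, 3 fell (Ccr7, S1pr1 and Gpr183) and 1, Itgb1, rose (median -0.10). With Cd4 required of both classes, 0 of these receptors passed as lower, and DESeq2 called 1 lower and 0 higher.

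**Figure D3:**
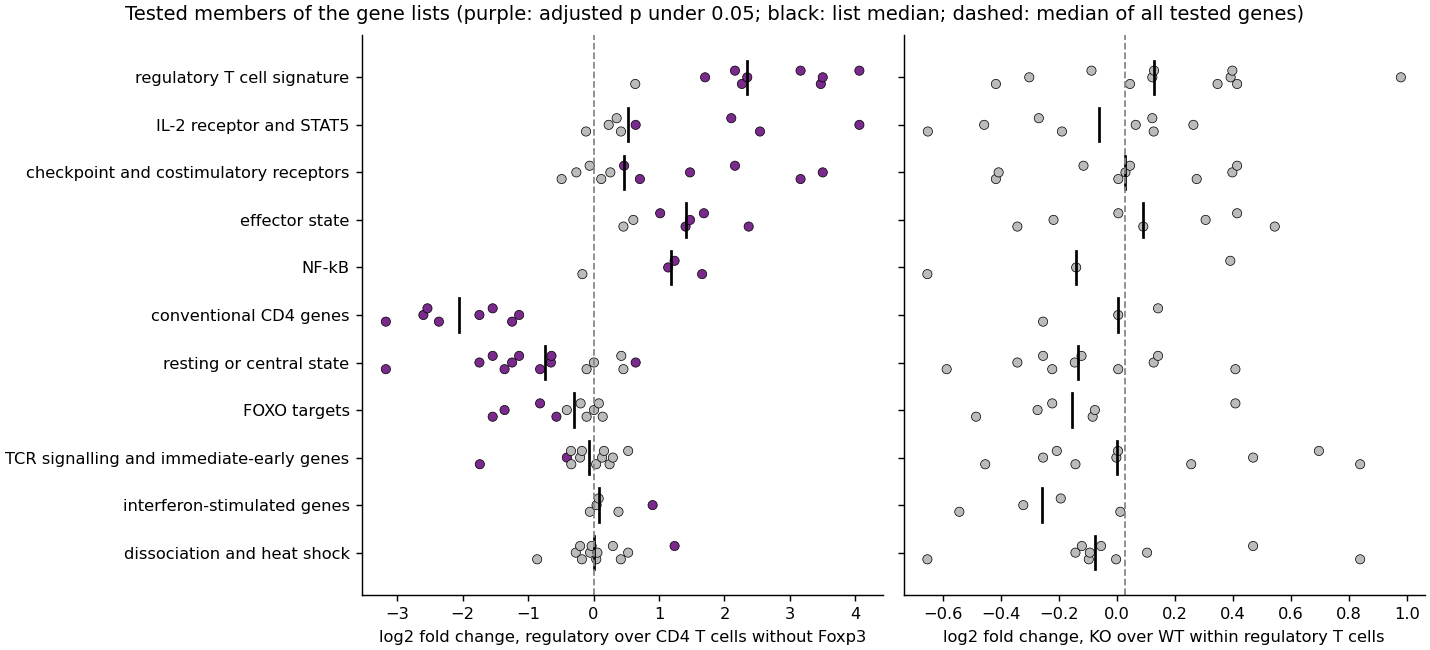
Log2 fold changes of the tested members of each gene list, for regulatory T cells over CD4 T cells without Foxp3 and for KO over WT within regulatory T cells. The signature list has a median of 2.35 in the first comparison and 0.13 in the second, where no gene passed.

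Several of the largest falls were of genes outside the resting and conventional lists. Cct6a, a chaperonin subunit, stood at 20.3 to 159.6 CPM against 426 to 732 CPM, a change of -2.86 ± 0.24 (adjusted p = 2.84e-09). Maml2, a Notch coactivator (-2.11), the actin cross-linker Actn1 (-1.83), Scml4 (-1.69) and Tecpr1 (-1.57) fell too. Among genes of T cell receptor signalling, the phosphatase Ptprc fell (-0.41, call lost without WT2 or WT3), and the immediate-early factors Junb and Jund stood at 0.30 and 0.25 without passing.

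Ribosomal protein genes were slightly lower. Rps29 stood at 8689 to 11854 CPM in regulatory T cells and 14802 to 16043 CPM in the other class, without overlap, a change of -0.55 ± 0.07 (adjusted p = 4.61e-06). All 80 cytosolic ribosomal genes were tested, 29 fell and none rose (median -0.19). The number was 14 with library totals, where 12 genes were positive, 73 with TMM over all genes, 15 without WT2 or in DESeq2, 12 on lane 1, 10 on lane 2 and 18 without WT3.

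PI3K, interferon and follicular genes gave few calls. Inpp4b, a phosphatase of PI3K lipid products, stood at 1245, 997 and 1195 CPM in WT and 745, 1783 and 1635 CPM in KO mice, against 674 to 926 CPM, a rise of 0.70 ± 0.13 (adjusted p = 2.10e-04). KO1 lay within the range of the other class. Inpp4b was the 1 gene that passed of 4 tested among 20 PI3K genes, and Pik3cd, the delta catalytic subunit, stood at -0.20. Of 5 tested interferon-stimulated genes 1 rose, Ifi27l2a (0.90 ± 0.14, adjusted p = 3.39e-05), and without KO1 2 of 9 tested rose and 1 fell. Ifi27l2a stood at 4983 CPM in KO1 and 954 to 3790.5 CPM in the other mice, and in CD4 T cells without Foxp3 at 3163 CPM in KO1 and 845 to 1559.8 CPM. Tox, a factor of follicular and chronically stimulated T cells, rose by 0.72 ± 0.15 (adjusted p = 0.00131), 1 of 2 follicular regulatory genes tested. Cxcr5, the receptor for follicle entry, had a UMI in 1.39% of regulatory T cells (exact 95% interval 0.169 to 4.93%) and 1.5% of the other class, both below the 17.7% of B cells. Bcl6, the master factor of follicular T cells, was found in 9.03 and 7.68%. Il21 was in 0 of 144 cells, which allows up to 2.08% of cells with a UMI.

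Cd74, the invariant chain of MHC class II, named after its values were seen, also rose, by 2.52 ± 0.44 (adjusted p = 1.45e-04), and 3 cells held 81.7% of its 459 UMIs. These 3 cells, 2 of KO1 and 1 of WT2, had 131, 149 and 95 Cd74 UMIs, and no other cell had more than 8. The KO1 cells also had 16 and 33 UMIs of Tyrobp and 12 and 26 of Fcer1g, adaptors of myeloid cells, and 1 of the 2 had no UMI of Il2ra, Ikzf2, Ctla4 or Tnfrsf4. The WT2 cell had 9 Ikzf2 and 15 Tnfrsf4 UMIs and no Tyrobp UMI. Without the 3 cells, a setting chosen after seeing the data, Cd74 rose by 1.31 ± 0.23, and 98 genes were higher and 90 lower. Without KO1 Cd74 rose by 1.72 and without WT3 by 3.12. Its call was lost with Cd4 required of both classes (0.54, edgeR adjusted p = 0.642), on lane 1 (0.13, 0.96) and in DESeq2 (1.93, 0.136).

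B cell, macrophage and dendritic cell markers were highest in KO1, and NK cell markers were not, at 0 CPM in KO1 and 34.1 CPM in KO3. The 10 B cell markers, Cd74 and 2 MHC class II genes among them, summed to 8795 CPM in regulatory T cells of KO1, to 382 to 1814 CPM in the other mice and to 243 to 446 CPM in CD4 T cells without Foxp3. Of the 10, Cd79a was at 0 by the rule, and Cd79b was found in 1.39% of regulatory T cells and 87.1% of B cells. The 7 macrophage and monocyte markers summed to 301 CPM in KO1 and 0 to 45.3 CPM in the others, with C1qc at 0. The 7 dendritic cell markers summed to 549.7 CPM in KO1 and 40.5 to 154 CPM in the others, with Xcr1, Clec9a and Siglech at 0. In CD4 T cells without Foxp3 the dendritic markers were also highest in KO1, at 457 CPM, with Xcr1 and Clec9a at 0. The sum of interferon-stimulated genes was highest in KO1 too, at 7852 CPM against 2181 to 3237 CPM in the other mice. In regulatory T cells that sum was 8618 CPM in KO1 and 2419 to 6094 CPM in the others. Whether the dendritic sum in KO1 came from dendritic cell material or from interferon response was not tested. An assembled B cell receptor contig was present in 1 regulatory T cell. Leaving out the 11 regulatory T cells and the comparison cells with B cell, myeloid or NK transcripts or a contig gave 99 genes higher and 113 lower, and 178 of the 191 genes were among them. Cd74 rose by 2.32 there, and 0 genes passed in edgeR between KO and WT in regulatory T cells, with 23 at an unadjusted p under 0.05.

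Levels within the regulatory T cells followed the Foxp3 count. Il2ra stood at 244 CPM in cells with 1 Foxp3 UMI and 509 CPM in cells with 2 or more, beside 19.6 CPM in CD4 T cells without Foxp3. Tnfrsf18 stood at 301, 470.0 and 74.3 CPM in the same order, and Lef1 at 262, 228 and 791 CPM. For all 3 genes, cells at the threshold lay on the same side of the comparison class as cells with more Foxp3 UMIs, and Il2ra and Tnfrsf18 lay between.

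The share of regulatory T cells overlapped between genotypes. They were 3.97, 3.59 and 3.67% of all T cells in WT and 4.23, 3.69 and 2.82% in KO mice, means of 3.75 ± 0.198% and 3.58 ± 0.71% (SD, n = 3 each). The two-sided exact permutation test gave p = 0.9 (0.9 adjusted over 6 shares), where 3 against 3 mice cannot go below 0.1. The difference was -0.167 percentage points, and it was 0.212 without KO3, -0.493 without KO1 and -0.0552 without WT1. Of T cells without Cd8a and Cd8b1 they were 6.36, 6.26 and 5.93% in WT and 6.34, 5.41 and 4.53% in KO mice. Their exact permutation p was 0.3 (adjusted 0.36). The difference was -0.756 percentage points, -1.22 without KO1 and -0.307 without KO3. The exact permutation p was 0.1, the smallest these numbers of mice allow, without KO1, without the high Cd74 cells and without the cells of most UMIs. Of all retained cells they were 0.806, 1.2 and 0.893% in WT and 0.601, 0.543 and 0.433% in KO mice, which did not overlap (exact permutation p = 0.1, adjusted 0.3). All T cells together were 26 ± 6.75% of retained cells in WT and 14.8 ± 0.564% in KO mice, with an exact permutation p of 0.1. How many T cells a node held and how its enriched and untouched cells were mixed cannot be told apart here.

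**Figure D4:**
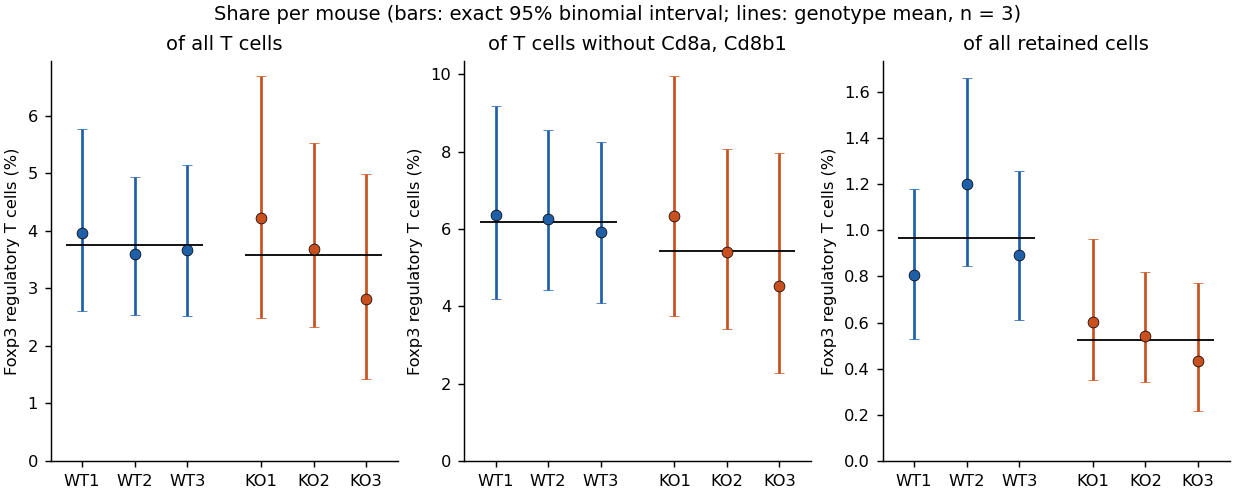
Share of Foxp3 regulatory T cells per mouse, with exact 95% binomial intervals, among all T cells, T cells without Cd8a and Cd8b1, and all retained cells. The genotypes overlap among all T cells (means 3.75 and 3.58%) and not among all retained cells (0.967 and 0.525%).

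The targeted gene was too low to check the labels. Pik3cg had 1, 5 and 2 UMIs in the regulatory T cells of the WT mice and 3, 2 and 0 UMIs in those of the KO mice. The kit reads transcript starts and the labels do not say which part was deleted, so these UMIs check nothing.

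No gene passed between KO and WT in regulatory T cells (0% of 742 tested). In edgeR 27 genes had an unadjusted p under 0.05 and in DESeq2 8, and DESeq2 also called none. For 60 genes (8.09%) the WT and KO values did not overlap. Random labels for 3 against 3 mice leave a gene without overlap with a probability of 0.1, so this share is not above chance. Slc15a2, a peptide transporter, had the smallest p. It stood at 15.7, 76 and 37.8 CPM in WT and 222, 246 and 174 CPM in KO mice, without overlap, a difference of 2.15 ± 0.49 (adjusted p = 0.301). In CD4 T cells without Foxp3 Slc15a2 stood at 3.28, 85.1 and 74.7 CPM in WT and 96.3, 271 and 127 CPM in KO mice, a difference of 1.66 ± 0.40 (adjusted p = 0.132). Next by p came the kinase gene Cdk8 (-0.69), the electron carrier Cycs (1.31), the amino acid transporter Slc38a2 (-1.34), Rgs10 (-0.94) and Reep5 (0.94), none past the threshold.

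The defining genes of regulatory T cells did not pass between KO and WT, and the errors of their differences were wide. The log2 difference was 0.12 ± 0.30 for Il2ra, -0.09 ± 0.34 for Ikzf2, -0.42 ± 0.34 for Ctla4, 0.04 ± 0.34 for Tnfrsf4 and 0.40 ± 0.31 for Tnfrsf18. The values of Ctla4 and Tnfrsf18 were larger than their SE. Ctla4 stayed below 0 in all 17 alternatives that tested it (-0.83 to -0.14) and passed in none. The alternatives share mice and cells, so their common sign is not separate evidence, and the WT and KO values of Ctla4 overlapped. Without KO3 the value was -0.09 for Il2ra and 0.27 for Ikzf2, and without KO1 it was -0.60 for Tnfrsf4. Of 27 signature genes 11 were tested here, and their median was 0.13 beside 0.03 for all tested genes. The median was -0.13 for 10 tested resting genes and 0.09 for 7 tested effector genes. These values came from 11 to 36 cells per mouse.

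In CD4 T cells without Foxp3, 2 of 3463 genes passed (0.0578%). Hspa1b, an inducible heat-shock chaperone, stood at 219.6, 282 and 237 CPM in WT and 21.4, 84.1 and 57.7 CPM in KO mice, a change of -1.99 ± 0.26 (adjusted p = 1.07e-04). Kcnq5, a potassium channel, stood at 26.2, 39.9 and 26.7 CPM in WT and 96.3, 84.1 and 127 CPM in KO mice, a change of 1.69 ± 0.32 (adjusted p = 0.0216). Kcnq5 lost its call without WT1, WT3 or KO3, on lane 2 and in DESeq2 (adjusted p = 0.229), where its value was 1.73. The count was 1 without WT1 or WT3, 6 without KO1 or KO2 and 8 without KO3, 1 of which was among the 2. In regulatory T cells Hspa1b stood at 61.5, 45.3 and 172 CPM in WT and 106, 142 and 68.1 CPM in KO mice, which overlapped.

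The genotype effect was not shown to differ between the classes. The interaction was fitted over 1739 genes and none passed in edgeR (0%), where 66 had an unadjusted p under 0.05. DESeq2 called none, with 14 at an unadjusted p under 0.05. Hspa1b had the smallest p, with a difference of effects of 2.41 ± 0.66 (adjusted p = 0.775), followed by Tbc1d4, which regulates glucose transporter traffic (-2.51), and Mllt3 (-1.28). The count was 7 without KO1 and 6 without KO2.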

How the data were processed

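Gene, hashtag and B cell receptor libraries of 2 lanes were made with a 5' V(D)J kit from 1 pool of 6 hashtagged mice. The deposited matrices hold raw UMI counts from Cell Ranger 7.0.1, per the file headers, on mm10, per the submitters' processing notes. The authors deposited hashtag calls, and the labels do not state the rule behind them. Of 23516 barcodes, 19270 had 1 hashtag and 3902 with several were left out as multiplets, with no other doublet caller run. Cells had at least 500 UMIs and at most 10% mitochondrial UMIs, which removed 40. For each class the UMIs of a mouse were added up over both lanes, where it had at least 10 cells.

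Sums were filtered with filterByExpr, scaled by TMM and tested with edgeR 4.0.16 (quasi-likelihood, Benjamini-Hochberg, SE from the F statistic) in R 4.3.3. DESeq2 1.42.0, other scalings, filters, class definitions, lanes and left-out mice were the alternatives. Shares were tested with exact permutation tests (scipy 1.17.1). The fitting code was tested on simulated data. P-values measure the spread among these mice. Genes were named by rule: label markers, the 12 largest rises and falls of at least 50 CPM with the same sign in every mouse, the 6 smallest p-values of each genotype comparison, and list members past the threshold with the 2 most abundant others. Some of the genes this rule names are not reported here. The members and lists were chosen with earlier results of these data known.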

Additional observations from a re-analysis of the deposited data

Results flagged for a closer look

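Chance sets 1 sample apart in about 1 in 20 groups, and here 3 of 50 gene ratios and 5 of 27 list sums over 6 mice had a mouse apart by Dixon's test. All 3 ratios set KO3 apart, the mouse with 11 regulatory T cells. The log2 ratio of regulatory T cells to CD4 T cells without Foxp3, with a pseudocount of 50 CPM, was 0.99 for Ikzf2 in KO3 and 2.87 to 3.35 in the other mice. For Tnfrsf4 it was 0.86 in KO3 and 2.45 to 2.83 in the others. For Actn1 it was -2.52 in KO3 and -1.50 to -1.23 in the others.

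In regulatory T cells the sum of S phase and mitosis genes was 2057 CPM in WT3 and 579 to 1097 CPM in the other mice. The sums of B cell markers (8795 CPM), macrophage and monocyte markers (301 CPM) and dendritic cell markers (549.7 CPM) were each apart in KO1, the mouse with 2 of the 3 cells of high Cd74. Red cell and platelet markers summed to 12.3 CPM in WT3 and to 0 in the others. That sum came from 1 UMI, which alone set WT3 apart, so it says nothing about the mouse.

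Among barcodes with several hashtags, which entered no comparison, 16 met the gene rule for regulatory T cells, and among barcodes without a hashtag 0 did.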

How the results depend on the processing

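Of 51 genes named as called between the classes, 27 kept their call in every alternative that tested them. The 191 genes called between the classes became 330 with TMM over all genes, 413 without a filter on low counts, 94 in DESeq2, 92 on lane 1, 93 on lane 2, 99 with Cd4 required of both classes, 309 with Cd4 required of neither, 58 after thinning, and 104 to 215 with 1 mouse left out. Lane 1 left 2 mice with 10 or more regulatory T cells and the Cd4 requirement 3, so fewer samples entered. For KO against WT in regulatory T cells the 0 genes became 18 without a filter and 1 with Cd4 required. In CD4 T cells without Foxp3 the 2 became 4 with TMM over all genes, 17 without a filter, 1 in DESeq2, on lane 1 and after thinning, 37 with Cd4 not required, and 1 to 8 with 1 mouse left out. For the interaction the 0 became 5 without a filter, 14 with Cd4 not required, 1 each with stricter exclusion of other cell types, after thinning and without the 3 cells of high Cd74, and 0 to 7 with 1 mouse left out. The cause of these changes was not tested, apart from the fewer samples named. TMM over all genes, library totals and leaving out the high Cd74 cells were chosen after seeing the data.

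Icos between the classes turned to -0.0377 on lane 1. The uncalled KO minus WT values of Il2ra, Ikzf2 and Tnfrsf4 turned sign, and that of Ctla4 did not. Il2ra turned to -0.28 with Cd4 required, -0.0620 with TMM over all genes, -0.0561 without a filter and -0.0902 without KO3. Over left-out mice Il2ra ran from -0.0902 to 0.318. Ikzf2 turned to 0.0770 without the cells of most UMIs, 0.0665 without the high Cd74 cells, 0.33 with stricter exclusion, 0.23 on lane 2, 0.271 without KO3 and 0.0952 without WT2, from -0.443 to 0.271 over left-out mice. Tnfrsf4 turned to -0.0921 with Cd4 required, -0.13 with TMM over all genes, -0.14 without a filter, -0.601 without KO1 and -0.0994 without WT1, from -0.601 to 0.338 over left-out mice. The share of all T cells, KO minus WT, turned to 0.451 points on lane 2, 0.214 with Cd4 required, 0.185 with 2 or more Foxp3 UMIs, 0.367 after thinning and 0.212 without KO3, and over left-out mice it ran from -0.493 to 0.212. The share of T cells without Cd8a and Cd8b1 turned to 0.274 on lane 2, 0.163 with Cd4 required, 0.0882 with 2 or more Foxp3 UMIs and 0.352 after thinning.

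No paired analysis was possible because the mouse numbers only follow the order of the hashtags and pair no WT with a KO mouse. Fits with 2 or more Foxp3 UMIs, and lane 1 for the genotype in regulatory T cells and the interaction, were not run, since too few mice had 10 cells. With 11 to 36 members per mouse, low genes could not be compared between genotypes.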

Other observations

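Cells that look like regulatory T cells in the other markers were also found without a Foxp3 UMI. At least 2 of Il2ra, Ikzf2, Ctla4 and Tnfrsf4 were found in 102 of 2298 T cells without Cd8a, Cd8b1 and Foxp3 UMIs (4.44%), beside 77 of the 144 cells with Foxp3. In CD8 T cells without Foxp3 the number was 10 of 1461 (0.684%), and in B cells 4 of 13630 (0.0293%). Whether the 102 cells express Foxp3 cannot be read from these counts, since 93 of the 144 members were found through 1 Foxp3 UMI.

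Genes of the suppressive repertoire outside the fits were sparse. Nrp1, a surface receptor of thymus-derived regulatory T cells, was found in 24.3% of members and 3.67% of CD4 T cells without Foxp3. The ectoenzyme Entpd1 (CD39) was found in 8.33 and 0.668%, the receptor Tigit in 8.33 and 1.5%, the cytokine subunit Ebi3 in 7.64 and 1.34%, and the repair factor Areg in 4.86 and 0.668%. In B cells the shares were 0.088% for Nrp1, 2.58% for Entpd1, 0.0293% for Tigit, 2.1% for Ebi3 and 0.0147% for Areg. The cytokine Il10 was found in 1 member and in 1 CD4 T cell without Foxp3.

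Of 191 retained cells with a Foxp3 UMI, 14 were CD8 T cells and 16 carried both Cd3 and Cd79a UMIs, and neither group entered the members.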
